A study of Caenorhabditis elegans with 12 samples.

Results

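Early embryos of Caenorhabditis elegans depleted of pos-1 were set against early embryos depleted of gld-3, using 4 of the 12 libraries of the series. These were the 2 libraries titled pos-1 (RNAi) and the 2 titled gld-3 (RNAi), and no measured value entered the choice. Both groups came from wild-type N2 worms fed HT115(DE3) bacteria that expressed double-stranded RNA against the gene, after 6 h of induction with IPTG, and for both the labels gave over 90% of embryos between the zygote and the 24-cell stage. The 2 libraries of untreated N2, for which the labels describe OP50 bacteria, are given beside them, so that food and RNAi feeding differ between N2 and both knockdowns but not between the knockdowns. No allele or transgene is named for these groups. PAT-seq, a method that sequences the 3' ends of adenylated RNA through the poly(A) tail, gave a read count and a mean tail length in nucleotides (nt) for each gene.

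POS-1 is a CCCH zinc finger protein that binds the 3' untranslated regions of maternal mRNAs in the posterior of the embryo. GLD-3 is a KH-domain protein that partners the cytoplasmic poly(A) polymerase GLD-2, which has no RNA-binding domain of its own and lengthens the tails of target mRNAs. Tail length in the early embryo is tied to translation and stability of maternal mRNA, and the series title places POS-1 and GLD-3/GLD-2 on opposite sides of the tail of neg-1, an anterior factor. The comparison therefore asks which tails and transcripts differ between loss of the one and loss of the other.

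The libraries of the comparison held 6391258 to 9846880 gene reads, of which 39.1% to 51.6% fell on rRNA. That left 3093181 to 4940276 reads on other genes. Levels are given as CPM, read counts scaled to library size after TMM correction, rRNA included. The labels do not say whether a group's 2 libraries are separate cultures. The p-values therefore measure only the spread between libraries of a group, which may be technical. That spread was pooled over all 12 libraries in 6 groups, not taken from the 4 alone. In whole embryos, fewer cells of a type and less RNA per cell cannot be told apart. The 2 targeted genes followed the labels. The gld-3 level was 120 and 148 CPM in pos-1 RNAi, against 8.46 and 9.27 CPM in gld-3 RNAi and 105 and 104 CPM in N2. The pos-1 level was 132 and 42.8 CPM in pos-1 RNAi, against 462 and 486 CPM in gld-3 RNAi and 506 and 626 CPM in N2. Both targets passed the test (edgeR quasi-likelihood; gld-3 log2 fold change 3.92 ± 0.23 (SE), adjusted p = 1.45e-06; pos-1 -2.44 ± 0.38, adjusted p = 0.00192). The pos-1 RNAi libraries differed from each other in the remaining pos-1 mRNA: the log2 fold change of pos-1 was -3.45 without replicate 1 and -1.80 without replicate 2 of pos-1 RNAi, and passed in both (edgeR adjusted p = 6.6e-05 and 0.00702). With only the 4 libraries in the fit it was -2.47 and did not pass (edgeR adjusted p = 0.0645).

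Tails of 15 genes were longer in pos-1 RNAi than in gld-3 RNAi and none were shorter, of 5471 genes tested, which is 0.274% (limma, adjusted p below 0.05). At an unadjusted p below 0.05 there were 353 longer and 117 shorter. The 15 differences ran from 12.1 to 26.6 nt, with standard errors from 2.06 to 3.91 nt, while the median difference over all tested genes was 0.324 nt. In all 15 genes both pos-1 RNAi libraries lay above both gld-3 RNAi libraries, a separation found in this direction in 21.7% of all tested genes. In 14 of the 15 the pos-1 RNAi libraries also lay above both N2 libraries, and in 11 both gld-3 RNAi libraries lay below both N2 libraries. The median distance from N2 was 8.37 nt for pos-1 RNAi and -8.45 nt for gld-3 RNAi. Both distances use the same N2 libraries, and none of the 15 passed the limma test of either knockdown against N2. Over all tested genes the median distance from N2 was 2.68 nt for pos-1 RNAi and 2.13 nt for gld-3 RNAi. The 15 were chosen by the gap between the knockdowns, so values on either side of N2 follow in part from that choice. The shares of all tested genes above or below both N2 libraries are not given here.

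The anterior factor neg-1 (deposited as F32D1.6, on ce10 at chromosome V, 4373912 to 4374832, minus strand), was among them. Its mean tail was 51.8 and 45.5 nt in pos-1 RNAi, against 25.6 and 24.8 nt in gld-3 RNAi and 46.7 and 41 nt in N2. The pos-1 RNAi tails overlapped those of N2, and the gld-3 RNAi tails lay well below both. The difference was 23.5 ± 3.76 nt (SE; limma adjusted p = 0.0300), from 138 to 338 reads a library. The neg-1 mRNA was at 29.4 and 23.8 CPM in pos-1 RNAi, against 39.2 and 28.7 CPM in gld-3 RNAi, a log2 fold change of -0.35 ± 0.26 that did not pass (edgeR quasi-likelihood adjusted p = 0.617). The call on the tail was lost with each library left out in turn: the difference then ran from 20.3 to 26.6 nt, with limma adjusted p from 0.135 (without replicate 2 of gld-3 RNAi) to 0.257 (without replicate 1 of pos-1 RNAi).

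F32D1.7 lies upstream of neg-1 on the same strand, where its annotated end is 291 bp before the start of neg-1, and it had its own poly(A) peak. Its tail was 67.5 and 66 nt in pos-1 RNAi, against 45.8 and 50.3 nt in gld-3 RNAi and 61.7 and 55.1 nt in N2. The groups did not overlap, and the difference was 18.7 ± 2.45 nt (limma adjusted p = 0.00931). The largest difference belonged to ess-2, the orthologue of the splicing-associated protein ESS2, at 63.5 and 67.8 nt in pos-1 RNAi, against 38.5 and 39.6 nt in gld-3 RNAi. It was 26.6 ± 2.96 nt (limma adjusted p = 0.00356). The smallest limma adjusted p was shared with C05C10.5, a gene known here only by its sequence name. The C05C10.5 tail was 56.9 and 58.3 nt in pos-1 RNAi, against 36.5 and 34.1 nt in gld-3 RNAi, a difference of 22.3 ± 2.37 nt.

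**Figure D1:**
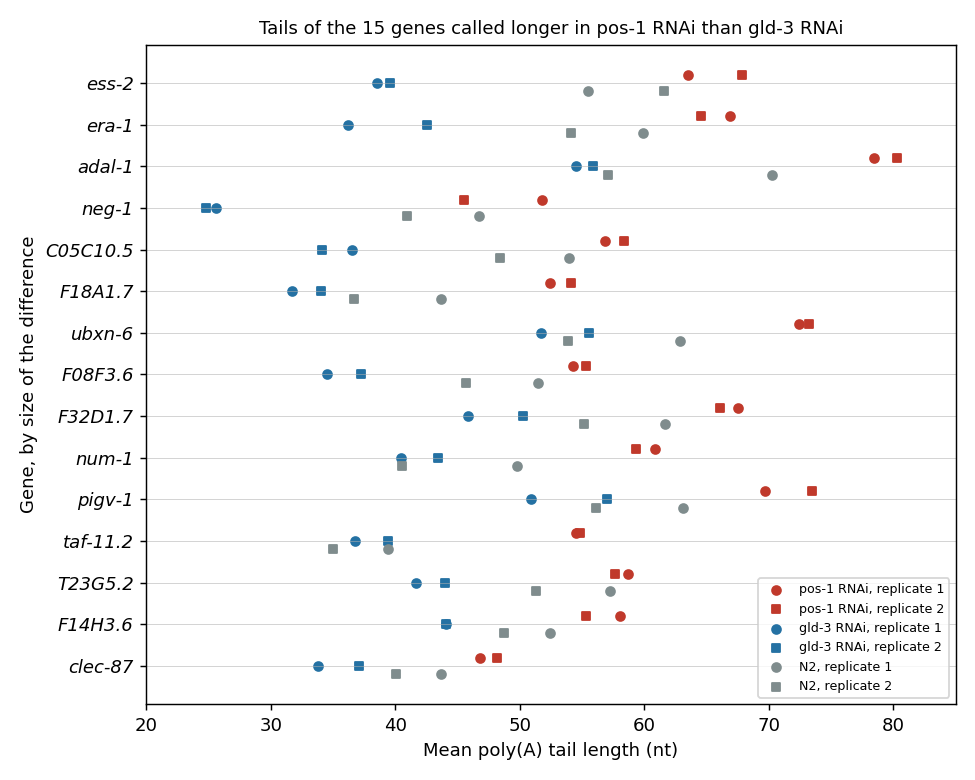
Mean poly(A) tail length in nt (x axis) of the 15 genes that passed the limma test (y axis, by size of the difference), with circles for replicate 1 and squares for replicate 2 of pos-1 RNAi, gld-3 RNAi and N2. The pos-1 RNAi points lie right of the gld-3 RNAi points in all 15 genes, and the neg-1 points of gld-3 RNAi sit at 25.6 and 24.8 nt.

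The other genes with longer tails had varied roles. They included num-1, the worm Numb homologue, with 60.9 and 59.3 nt in pos-1 RNAi, against 40.5 and 43.4 nt in gld-3 RNAi. A cofactor of the segregase CDC-48, ubxn-6, had 72.4 and 73.2 nt in pos-1 RNAi, against 51.7 and 55.5 nt in gld-3 RNAi. In both genes every pos-1 RNAi value lay above every gld-3 RNAi value. The TFIID subunit gene taf-11.2 differed by 16.6 ± 2.71 nt, the adenosine deaminase-like gene adal-1 by 24.2 ± 3.91 nt and the C-type lectin gene clec-87 by 12.1 ± 2.06 nt. The GPI-anchor mannosyltransferase gene pigv-1 differed by 17.6 ± 2.95 nt and era-1 by 26.3 ± 3.61 nt. The remaining 4 genes, F18A1.7, F08F3.6, T23G5.2 and F14H3.6, differed by 20.4, 18.9, 15.4 and 12.6 nt. The limma adjusted p of these 11 genes ran from 0.00931 to 0.0346, that of F14H3.6.

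Of the 15 genes, 2 had more than 1 poly(A) peak with a testable tail. In pigv-1 the middle of 3 peaks had tails of 76.5 and 80.9 nt in pos-1 RNAi, against 53.2 and 59.7 nt in gld-3 RNAi, a difference of 22.2 ± 3.93 nt, and the peaks on either side differed by 6.60 ± 2.80 and 9.33 ± 5.73 nt. In T23G5.2 the peak inside the gene had tails of 56.4 and 54.6 nt in pos-1 RNAi, against 33.2 and 39 nt in gld-3 RNAi, a difference of 19.4 ± 4.50 nt. The 2 downstream peaks of T23G5.2 differed by 14.2 ± 6.14 and 9.91 ± 1.97 nt. Differences between peaks of a gene were not tested, and none of these 6 peaks passed limma over all 7068 peaks, where 5 peaks did, those of C05C10.5, F18A1.7, F32D1.7, ess-2 and F08F3.6.

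The calls on tails depended on how libraries were put on one scale. The median tail of the tested genes was 45.2 and 45.6 nt in pos-1 RNAi, against 42.7 and 46.9 nt in gld-3 RNAi, so the gld-3 RNAi libraries differed by more than the groups. With each library centred on its median, limma called 78 genes (1.43%), 62 longer (1.13%) and 16 shorter (0.292%) in pos-1 RNAi, and the 15 genes above were among the 62. Centring moved the median difference over all genes to -0.271 nt. Without centring, leaving out 1 library left between 0 (without replicate 2 of pos-1 RNAi) and 9 calls (without replicate 2 of gld-3 RNAi), with 2 without replicate 1 of pos-1 RNAi and 1 without replicate 1 of gld-3 RNAi.

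Maternal mRNAs for regulators of early fate lay just outside the uncentred threshold. For zif-1, which encodes the substrate adaptor of an E3 ligase for CCCH zinc finger proteins, tails were 42.7 and 47.5 nt in pos-1 RNAi, against 30 and 32.8 nt in gld-3 RNAi (difference 13.7 ± 2.59 nt, limma adjusted p = 0.0626, and 0.00935 when centred). For mex-5, a CCCH protein gene of anterior polarity, they were 56.6 and 54.9 nt in pos-1 RNAi, against 39.1 and 43 nt in gld-3 RNAi (14.7 ± 3.18 nt, limma adjusted p = 0.0962, and 0.0115 when centred). The RNA-binding protein genes spn-4 and mex-3 differed by 9.69 ± 1.86 and 8.09 ± 1.73 nt, and both passed limma only when centred, with adjusted p = 0.0196 and 0.0186. Of the 12 maternal CCCH genes, 9 had testable tails. The mean tail was higher in pos-1 RNAi in 8 of the 9, against 53.6% of all tested genes, and none passed the uncentred test. The median difference was 6.56 nt, against 0.324 nt over all tested genes. The 8 include pos-1 itself, whose tail in pos-1 RNAi was measured on the mRNA left after the knockdown. Members of the list were chosen with earlier results of these data known. Among 22 maternal RNA-binding and translational regulator genes, 17 had a higher mean tail in pos-1 RNAi, against the same 53.6%, and none passed the uncentred test, with a median difference of 0.963 nt.

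The 3 memi genes, which act in the meiosis-to-mitosis transition of the egg, had higher mean tails and higher mean mRNA levels in pos-1 RNAi. This family was chosen after its values were seen. None of the 3 tails passed limma uncentred, and 2 passed when centred, those of memi-1 and memi-2. The memi-1 tail was 43.2 and 46.5 nt in pos-1 RNAi, against 22.7 and 24.8 nt in gld-3 RNAi (limma adjusted p = 0.0677, and 0.0253 when centred). The memi-2 tail was 38.2 and 34.9 nt in pos-1 RNAi, against 24.2 and 23.6 nt in gld-3 RNAi (limma adjusted p = 0.108, and 0.0499 when centred). In expression memi-3 rose, with 17.6 and 14.3 CPM in pos-1 RNAi, against 5.91 and 4.12 CPM in gld-3 RNAi and 22.4 CPM in both N2 libraries (log2 fold change 1.65 ± 0.27, edgeR quasi-likelihood adjusted p = 0.00310). The memi-2 mRNA also rose (1.01 ± 0.21, edgeR quasi-likelihood adjusted p = 0.0161, a call that held only without replicate 1 of gld-3 RNAi), while memi-1 did not pass (0.93 ± 0.29, adjusted p = 0.102). These genes are close in sequence, so reads could be split between them.

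The 16 genes called shorter with centring were not called without it, and 3 abundant ones are given, chosen after their values were seen. They were ant-1.1, a mitochondrial ADP/ATP carrier gene, with 38.7 and 39 nt in pos-1 RNAi, against 43.5 and 46.9 nt in gld-3 RNAi. The beta-tubulin gene tbb-1 had 43.3 and 44.5 nt in pos-1 RNAi, against 49.1 and 51.4 nt in gld-3 RNAi. The mitochondrial porin gene vdac-1 had 46.4 and 46 nt in pos-1 RNAi, against 50.7 and 54.1 nt in gld-3 RNAi. Centred differences were -6.95, -6.93 and -6.82 nt (limma adjusted p = 0.0210, 0.0210 and 0.0175), and the uncentred tests gave 0.0856, 0.194 and 0.192.

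In expression, 429 of 9403 genes differed (4.56%; edgeR quasi-likelihood, adjusted p below 0.05), 53 higher (0.564%) and 376 lower (4.00%) in pos-1 RNAi. The median log2 fold change over all genes was 0.00. Most of the 376 were scarce, with a median of 1.05 CPM in pos-1 RNAi, against 5.64 CPM in gld-3 RNAi, and 17 had no read in either pos-1 RNAi library. Set against N2, the 376 had a median log2 fold change of -1.96 in pos-1 RNAi and 0.81 in gld-3 RNAi, and edgeR called 208 lower in pos-1 RNAi and 79 higher in gld-3 RNAi. For the 53 the medians were 1.00 and -0.48, with 29 called higher in pos-1 RNAi and 13 called lower in gld-3 RNAi. Both sets of distances share the N2 libraries. Over all genes the median log2 fold change against N2 was -0.09 in pos-1 RNAi and -0.02 in gld-3 RNAi. The 376 and the 53 were chosen by the difference between the knockdowns, so medians on either side of N2 follow in part from that choice. The shares of all genes called against N2 are not given here. Leaving out 1 library gave between 146 calls (without replicate 2 of pos-1 RNAi) and 321 calls (without replicate 1 of gld-3 RNAi), with 241 without replicate 1 of pos-1 RNAi and 211 without replicate 2 of gld-3 RNAi. Of the 59 calls named here, 22 passed with each library left out in turn: gld-3, pos-1, ceh-51, end-1, col-165, col-74, col-65, cut-2, cut-3, cpg-3, cpr-6, rab-3, ftn-2, hsp-90, cav-2, cht-5, mec-17, memi-3, cht-1, far-3, tatn-1 and ech-1.1. Another 11 were lost whichever library was left out: elt-1, ceh-5, srlf-34, mlc-1, snt-1, lipl-2, cest-5.1, hacd-1, pbo-4, cnc-6 and ghi-1.

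**Figure D2:**
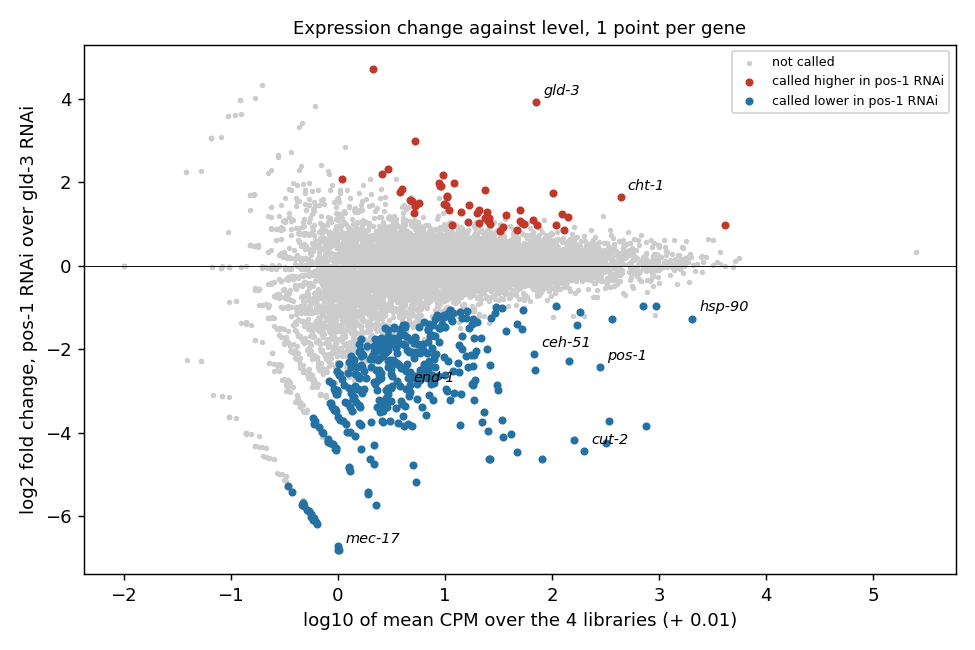
Log2 fold change, pos-1 RNAi over gld-3 RNAi (y axis), against log10 of the mean CPM over the 4 libraries plus 0.01 (x axis), 1 point per gene, with genes that passed the edgeR test coloured by direction. The 376 lower genes outnumber the 53 higher ones and lie mostly at low levels, and gld-3 stands at 3.92.

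Of the 20 gene lists, that of endomesoderm and gut had the lowest median. It holds fate genes such as end-1 together with intestinal genes such as ifb-2 and asp-1. Of 12 endomesoderm and gut genes tested, 5 fell in pos-1 RNAi (41.7%, against 4.00% of all genes) and none rose, where 0.564% of all genes did. The median log2 fold change was -1.77, against 0.00 over all genes. The mesoderm homeobox gene ceh-51 was at 29 and 21.5 CPM in pos-1 RNAi, against 110 and 110 CPM in gld-3 RNAi and 87.3 and 90.0 CPM in N2. It fell by 2.12 ± 0.21 on the log2 scale (edgeR quasi-likelihood adjusted p = 6.56e-05) and passed with each library left out in turn. The endoderm GATA factor gene end-1 was at 1.45 and 0.345 CPM in pos-1 RNAi, against 6.26 and 9.27 CPM in gld-3 RNAi and 5.32 and 4.69 CPM in N2. It fell by 2.95 ± 0.50 (edgeR quasi-likelihood adjusted p = 0.00350). For both genes the pos-1 RNAi libraries lay below all 4 of the others.

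The endoderm GATA factor gene elt-7 was at 1.56 and 0.690 CPM in pos-1 RNAi, against 7.76 and 4.29 CPM in gld-3 RNAi (edgeR quasi-likelihood adjusted p = 0.00705). The intestinal intermediate filament gene ifb-2 was at 2.79 and 3.45 CPM in pos-1 RNAi, against 16.3 and 7.73 CPM in gld-3 RNAi (adjusted p = 0.00636), and the intestinal protease gene asp-1 was at 28.2 and 8.62 CPM in pos-1 RNAi, against 57.1 and 53.8 CPM in gld-3 RNAi (adjusted p = 0.0358). The elt-7 call was lost without replicate 2 of pos-1 RNAi or replicate 1 of gld-3 RNAi (edgeR adjusted p = 0.0947 and 0.0712). The ifb-2 call held only without replicate 2 of gld-3 RNAi, and the asp-1 call only without replicate 1 of pos-1 RNAi. Without replicate 2 of pos-1 RNAi, asp-1 was at -0.93 (edgeR adjusted p = 0.203). The GATA factor genes end-3 and elt-2 had log2 fold changes of -1.98 and -2.55 and did not pass (edgeR adjusted p = 0.232 and 0.218), with elt-2 at 0.223 and 0 CPM in pos-1 RNAi, against 1.27 and 0.343 CPM in gld-3 RNAi. The maternal factor gene skn-1 was at 42 and 39 CPM in pos-1 RNAi, against 40.5 and 29.4 CPM in gld-3 RNAi. It did not pass (0.21 ± 0.25, edgeR adjusted p = 0.804).

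Of 21 genes of anterior and ectodermal fate, 2 rose (9.52%, against 0.564% of all genes) and none fell, near the 4.00% of all genes (median 0.35). The T-box gene tbx-38 of the anterior ABa lineage was at 14.3 and 17.2 CPM in pos-1 RNAi, against 4.87 and 4.98 CPM in gld-3 RNAi and 7.03 and 7.21 CPM in N2 (log2 fold change 1.67 ± 0.35, edgeR quasi-likelihood adjusted p = 0.0157), a call that held only without replicate 1 of pos-1 RNAi. The epidermal GATA factor gene elt-1 was at 44.8 and 47.6 CPM in pos-1 RNAi, against 24.9 and 23.2 CPM in gld-3 RNAi (0.94 ± 0.25, edgeR quasi-likelihood adjusted p = 0.0470). The elt-1 call was lost with each library left out in turn, with edgeR adjusted p from 0.124 to 0.209. Of 14 muscle and posterior genes, tbx-8, a T-box gene of muscle and epidermal patterning, rose by 1.33 ± 0.30 (edgeR quasi-likelihood adjusted p = 0.0233), a call that held only without replicate 1 of pos-1 RNAi and otherwise had edgeR adjusted p from 0.0611 to 0.186. Of 14 junction and epidermis genes, the antimicrobial peptide gene nlp-29 rose by 1.25 ± 0.26 (edgeR quasi-likelihood adjusted p = 0.0153). The nlp-29 call was lost without replicate 1 of pos-1 RNAi (1.14, edgeR adjusted p = 0.0975) or replicate 2 of gld-3 RNAi (0.95, edgeR adjusted p = 0.115). With 1 gene each of 14, these 2 lists stood at 7.14%.

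**Figure D3:**
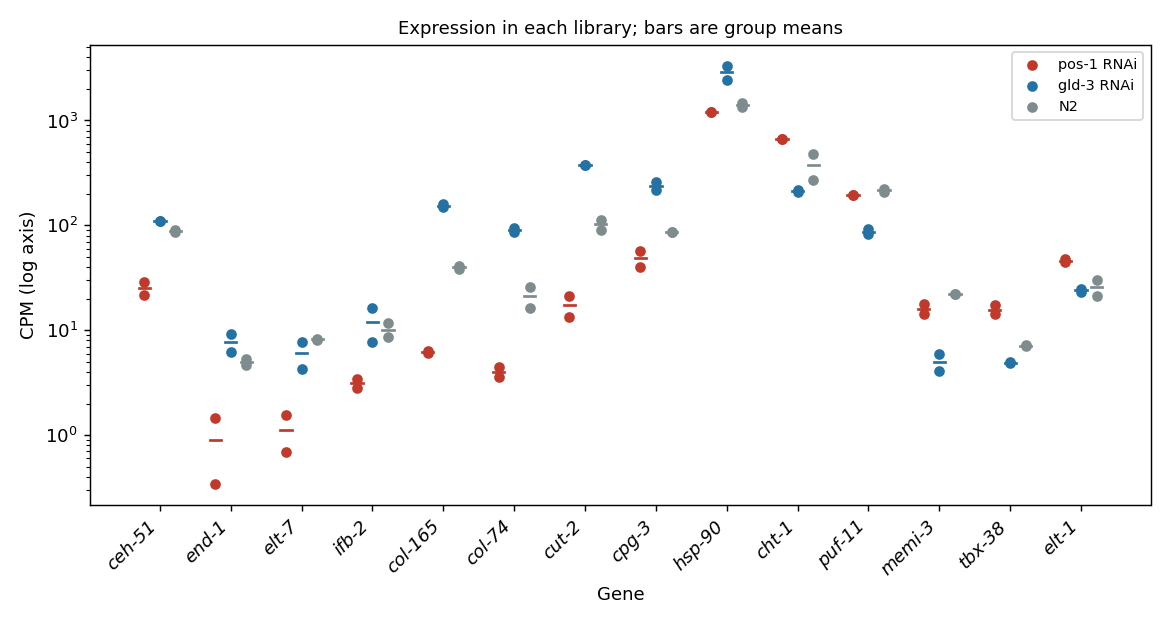
CPM on a log axis (y axis) of 14 genes (x axis), with a point for each library of pos-1 RNAi, gld-3 RNAi and N2 and a bar for the group mean. The pos-1 RNAi points of ceh-51, end-1, the collagen genes col-165 and col-74 and the cuticlin gene cut-2 lie below those of both other groups, and those of tbx-38 and elt-1 lie above.

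Cuticle genes were among the abundant genes that fell. The collagen gene col-165 was at 6.02 and 6.38 CPM in pos-1 RNAi, against 159 and 150 CPM in gld-3 RNAi and 41.4 and 38.2 CPM in N2. The pos-1 RNAi level was below N2 and the gld-3 RNAi level above it, and the groups differed by -4.64 ± 0.29 on the log2 scale (edgeR quasi-likelihood adjusted p = 1.45e-06). The cuticlin gene cut-2 was at 21.3 and 13.4 CPM in pos-1 RNAi, against 379 and 380 CPM in gld-3 RNAi and 114 and 90.5 CPM in N2, and cut-3 was at 18 and 15.9 CPM in pos-1 RNAi, against 145 and 466 CPM in gld-3 RNAi. In all 3 genes the N2 values stood between the knockdowns. These genes, with col-74 and col-65, were chosen after their values were seen. Counted by name, 16 of 76 collagen genes and 5 of 19 cuticlin genes were lower (21.1% and 26.3%, against 4.00% of all genes) and none higher. The median over the 76 collagen genes was -0.07, near that of all genes.

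Some genes of late tissues also fell, and their part in the other falls was not tested. Of 27 genes of late embryos and larvae, 7 fell (25.9%, against 4.00% of all genes) and none rose (median -0.85). The 7 were the pharyngeal myosin genes myo-1 and myo-2, the myosin light chain genes mlc-1 and mlc-3, the tropomyosin gene lev-11 and the synaptic vesicle genes rab-3 and snt-1. The rab-3 level was 2.12 and 2.76 CPM in pos-1 RNAi, against 10.4 and 13.1 CPM in gld-3 RNAi and 3.82 and 3.79 CPM in N2 (edgeR quasi-likelihood adjusted p = 0.00132). For snt-1, 1 read in pos-1 RNAi stood against 19 in gld-3 RNAi, a ratio of 19.4-fold lower with a 95% exact counting interval of 3.09 to 807. The summed level of the 27 genes was 3310 and 3100 CPM in pos-1 RNAi, against 2710 and 3390 CPM in gld-3 RNAi. The sums overlapped, but a sum rests mostly on the abundant members. The log2 fold change was positive in 6 of the 27, against 4732 of all 9403 genes. No member stood at 0 in both libraries of a group. Of the 7 calls, that of rab-3 held with each library left out. The myo-2 call was lost without replicate 2 of pos-1 RNAi (edgeR adjusted p = 0.0920), and the myo-1 call also without replicate 2 of gld-3 RNAi (edgeR adjusted p = 0.0973 and 0.0714). The mlc-3 call was lost without either pos-1 RNAi library (edgeR adjusted p = 0.0675 and 0.0701), the lev-11 call held only without replicate 1 of gld-3 RNAi, and the mlc-1 and snt-1 calls were lost in each case, with edgeR adjusted p from 0.0710 to 0.241 and from 0.0550 to 0.213.

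Of the 12 named genes with the largest fitted fall, 11 had no read in pos-1 RNAi, so the fold is a lower bound, taken against a floor of 3 reads over both libraries (0.203 CPM). The alpha-tubulin acetyltransferase gene of touch neurons, mec-17, was at 0 in pos-1 RNAi, against 1.97 and 2.06 CPM in gld-3 RNAi and 0.502 and 0.180 CPM in N2, at least 9.92-fold lower. The chitinase-family gene cht-5 was at least 9.78-fold lower and the cuticlin-like gene cutl-17 at least 9.75-fold lower. For lipl-2, hot-5, col-115, cest-5.1, hacd-1, pbo-4, cnc-6 and ghi-1 the bounds ran from 3.26 for ghi-1 to 6.24 for lipl-2, a lipase gene. The caveolin gene cav-2 had 1 read in pos-1 RNAi, against 52 in gld-3 RNAi, 53.1-fold lower with a 95% exact counting interval of 9.12 to 2140.

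Eggshell and yolk genes also fell in part. Of 21 oocyte and eggshell genes, 4 fell (against 4.00% of all genes), all of them chondroitin proteoglycan genes of the eggshell (cpg-1, cpg-2, cpg-3 and cpg-7), and none rose. The cpg-3 level was 57.4 and 40.5 CPM in pos-1 RNAi, against 257 and 220 CPM in gld-3 RNAi and 86.3 and 87.1 CPM in N2 (log2 fold change -2.28 ± 0.23, edgeR quasi-likelihood adjusted p = 6.28e-05), and that call held with each library left out. Without replicate 2 of pos-1 RNAi the calls on cpg-1, cpg-2 and cpg-7 were lost (log2 fold changes -0.78, -0.99 and -2.23, edgeR adjusted p = 0.280, 0.207 and 0.0704). Without replicate 1 of gld-3 RNAi those on cpg-1 and cpg-2 were lost (edgeR adjusted p = 0.125 and 0.0845), and without replicate 1 of pos-1 RNAi that on cpg-1 (edgeR adjusted p = 0.0718). Of 17 yolk and adult intestine genes, the cathepsin genes cpr-6 and asp-3 and the vitellogenin gene vit-5 fell (17.6%, against 4.00% of all genes; median of the list -1.03). The cpr-6 call held with each library left out. The vit-5 call held only without replicate 1 of pos-1 RNAi, at -2.50, and was lost at -1.36 without replicate 2 of pos-1 RNAi (edgeR adjusted p = 0.259). The asp-3 call was lost without replicate 2 of pos-1 RNAi (-1.53, edgeR adjusted p = 0.203) or replicate 2 of gld-3 RNAi (-1.93, edgeR adjusted p = 0.104), and stood at -3.15 without replicate 1 of pos-1 RNAi. The sum of the 17 genes was 213 and 109 CPM in pos-1 RNAi, against 229 and 233 CPM in gld-3 RNAi and 539 and 846 CPM in N2. The part of adult tissue in these values was not tested. None of 32 sperm genes passed (edgeR quasi-likelihood, median 0.50). Their sums were 86.9 and 55.7 CPM in pos-1 RNAi, against 48 and 61.8 CPM in gld-3 RNAi and 223 and 297 CPM in N2, so both knockdowns lay below N2.

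Abundant genes with other roles fell as well, chosen after their values were seen. The chaperone gene hsp-90 (deposited as daf-21) was at 1196 and 1205 CPM in pos-1 RNAi, against 2441 and 3338 CPM in gld-3 RNAi and 1340 and 1480 CPM in N2 (log2 fold change -1.27 ± 0.20, edgeR quasi-likelihood adjusted p = 0.00215). Here the pos-1 RNAi level was close to N2 and the gld-3 RNAi level above both. The ferritin gene ftn-2 was at 98.2 and 87.4 CPM in pos-1 RNAi, against 224 and 271 CPM in gld-3 RNAi and 230 and 242 CPM in N2, where the pos-1 RNAi level stood apart. The glyoxylate cycle gene icl-1 fell by 1.11 and the nucleoside diphosphate kinase gene ndk-1 by 0.96 on the log2 scale. Without replicate 2 of pos-1 RNAi or replicate 1 of gld-3 RNAi the icl-1 call was lost (edgeR adjusted p = 0.169 and 0.0626), and the ndk-1 call held only without replicate 1 of gld-3 RNAi.

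Of the 12 named genes with the largest rise, gld-3 and memi-3 are given above. The chitinase-family gene cht-1 was at 667 and 659 CPM in pos-1 RNAi, against 206 and 215 CPM in gld-3 RNAi and 479 and 268 CPM in N2 (log2 fold change 1.65 ± 0.28, edgeR quasi-likelihood adjusted p = 0.00342). The fatty acid and retinol binding protein gene far-3 was at 141 and 174 CPM in pos-1 RNAi, against 45.6 and 48.6 CPM in gld-3 RNAi and 20.4 and 33.4 CPM in N2, so both knockdowns exceeded N2. The tyrosine aminotransferase gene tatn-1 rose by 1.99 ± 0.31, the enoyl-CoA hydratase gene ech-1.1 by 1.91 ± 0.30 and the short-chain dehydrogenase gene dhrs-4 by 1.46 ± 0.28 (edgeR quasi-likelihood adjusted p = 0.00171, 0.00225 and 0.00965). Among the other 5, srlf-34 was at 2.01 and 1.55 CPM in pos-1 RNAi, against 0.463 and 0.343 CPM in gld-3 RNAi. Its N2 level was 2.91 and 4.33 CPM, so both knockdowns lay below N2. In lips-10, ceh-5, glam-1 and tbx-38 the pos-1 RNAi mean lay above that of N2. These 5 had log2 fold changes from 1.49 to 2.32. The highest, lips-10, ran from 1.66 without replicate 2 to 4.74 without replicate 1 of gld-3 RNAi, and passed only in the second case (edgeR adjusted p up to 0.188 in the others). The glam-1 call held only without replicate 2 of pos-1 RNAi, and the dhrs-4 call was lost without replicate 2 of pos-1 RNAi or replicate 1 of gld-3 RNAi (edgeR adjusted p = 0.0788 and 0.0783).

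Of 29 maternal RNA-binding and translational regulator genes, 2 rose (6.90%, against 0.564% of all genes), both of the Pumilio family of translational repressors. None fell, near the 4.00% of all genes (median 0.05). The puf-11 level was 196 and 196 CPM in pos-1 RNAi, against 92.1 and 82.1 CPM in gld-3 RNAi and 208 and 225 CPM in N2 (log2 fold change 1.17 ± 0.23, edgeR quasi-likelihood adjusted p = 0.00940). The puf-3 level was 137 and 154 CPM in pos-1 RNAi, against 82.5 and 64.7 CPM in gld-3 RNAi and 164 and 191 CPM in N2 (0.98 ± 0.21, edgeR quasi-likelihood adjusted p = 0.0168). For both genes the gld-3 RNAi libraries lay below the other 4. Without replicate 2 of gld-3 RNAi both calls were lost (edgeR adjusted p = 0.0628 for puf-11 and 0.129 for puf-3), and the puf-3 call was also lost without replicate 2 of pos-1 RNAi (edgeR adjusted p = 0.124). Of 26 genes of the poly(A) machinery, gld-3 itself rose and no other passed. The polymerase gene gld-2 stood at 12.4 and 13.1 CPM in pos-1 RNAi, against 13.2 and 12.0 CPM in gld-3 RNAi. The mex-5 and mex-6 mRNAs did not pass (log2 fold changes -0.27 ± 0.20 and -0.25 ± 0.28, edgeR adjusted p = 0.617 and 0.788).

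**Figure D4:**
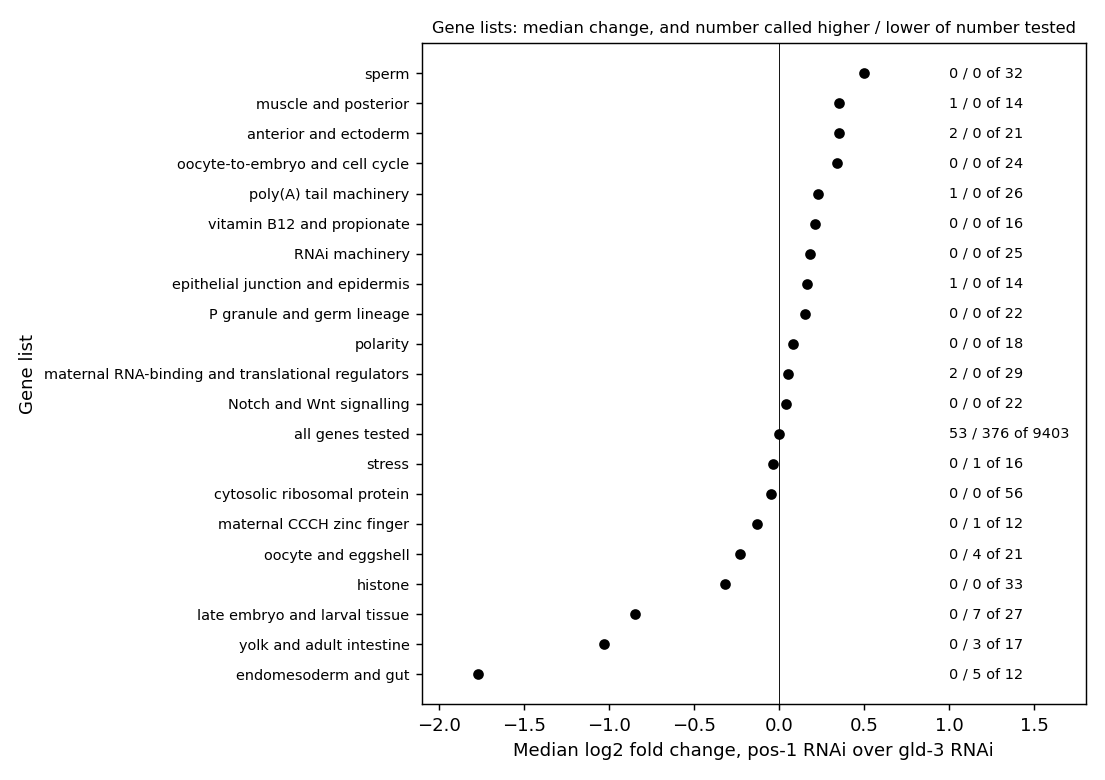
Median log2 fold change, pos-1 RNAi over gld-3 RNAi (x axis), of 20 gene lists and of all genes tested (y axis), with the number called higher, the number called lower and the number tested at the right. The endomesoderm and gut list is lowest at -1.77, followed by yolk and adult intestine at -1.03 and late embryo and larval tissue at -0.85.

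No gene passed in 9 lists (edgeR quasi-likelihood): P granule and germ lineage (22 tested), Notch and Wnt signalling (22), polarity (18), sperm (32), cytosolic ribosomal protein (56), histone (33), oocyte-to-embryo and cell cycle (24), vitamin B12 and propionate (16) and RNAi machinery (25). Over all genes 4.56% passed, so a count of 0 in lists of 16 to 56 genes is near that share. Their medians ran from -0.32 for histones to 0.50 for sperm.

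None of the 15 genes with a longer tail passed the expression test, where 111 of the 5471 genes in both tests passed (2.03%), so that a count of 0 in 15 is near the background. Their log2 fold changes ran from -0.35 to 0.49 with a median of -0.05. The smallest edgeR adjusted p among them was 0.609, that of adal-1. Of the 62 genes longer with centring, 2 were called higher in expression and none lower. Of the 16 shorter with centring, 1 was called lower in expression (edgeR adjusted p = 0.0224) and none higher. Tails could be tested in 77 of the 376 genes with lower mRNA. Their median tail difference was -3.38 nt, and the mean tail was higher in pos-1 RNAi in 23 of the 77. In 34 of the 53 genes with higher mRNA the median was 0.25 nt, and the mean tail was higher in 17. Over all tested genes the median was 0.324 nt and 53.6% had a higher mean tail, so 17 of 34 is near that share. The counts of 23 and 17 are of direction only, not of calls.

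**Figure D5:**
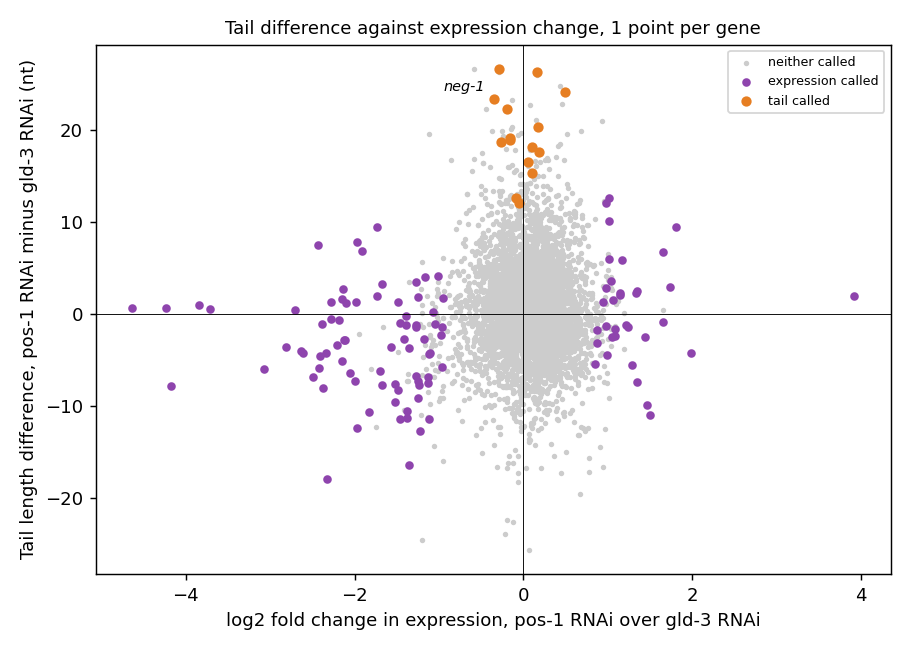
Tail length difference in nt, pos-1 RNAi minus gld-3 RNAi (y axis), against log2 fold change in expression (x axis), 1 point per gene in both tests. The 15 genes with a called tail lie between -0.35 and 0.49 on the x axis, and none of the 15 is called in expression.

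Genes were also split by the tail in N2. From the fifth of genes with the shortest N2 tails (12.7 to 34.8 nt) to the fifth with the longest (50.6 to 83.6 nt), the median differences were 0.00103, 0.225, 0.306, 0.576 and 0.862 nt. In the same order, 0, 1, 3, 2 and 9 of the 15 called genes fell in these groups, and with centring 3, 6, 7, 15 and 31 of the 62 longer ones. The points share their libraries, and no test was made.

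Poly(A) site use gave no call in a single gene. Of 1695 features with more than 1 peak, 18 passed (1.06%; edgeR diffSpliceDGE, Simes adjusted p below 0.05), and all 18 merged more than 1 coding gene, with 6 to 126 peaks each, so that a change in 1 gene reads as a change of site. In a fit of single-gene features alone, 0 of 1524 passed and 9 had an unadjusted p below 0.05. The smallest edgeR diffSpliceDGE Simes adjusted p was 0.999949. Evenly spread p-values would put a share of 0.05 of the features below 0.05, so these p-values were conservative. The count of 0 therefore does not show that site use was alike in single genes. With the gene-level F test, chosen after seeing the data, 1 single gene passed, eps-8, an actin-capping and signalling adaptor gene (edgeR diffSpliceDGE adjusted p = 0.0103). The peak inside eps-8 (ce10 chromosome IV, 14896563 to 14896663) took 91.9% and 94.6% of its peak reads in pos-1 RNAi, against 68.8% and 72.7% in gld-3 RNAi. The rest lay at 14900524 to 14900624, with 6 and 3 reads in pos-1 RNAi, against 24 and 15 in gld-3 RNAi.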

How the data were processed

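Per the labels' protocols, RNA ends were tagged by Klenow extension, RNA was cut with RNase T1 and fragments of 120 to 300 bases were sequenced. The submitters' processing notes name Bowtie2 2.2.2 and ce10. The authors deposited whole-number counts and mean tail lengths in nt, for genes and for poly(A) peaks, with positions in bp. How tails were averaged is not stated in the labels. Of 43283 gene names, 42724 (98.7%) matched the WBcel235 annotation, which was used for names only.

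In R 4.3.3, counts were tested with edgeR 4.0.16 (quasi-likelihood, filterByExpr, TMM) and mean tails with limma 3.58.1 (variance trend on log2 reads, at least 10 reads and a value in every library), each on all 12 libraries in 6 groups, with Benjamini-Hochberg adjustment over all genes, two-sided, at 0.05. Scripts were tested on simulated data. Reads carry no molecular identifiers, so intervals cover counting error only. Features that merged coding genes (6.69% to 8.96% of reads) stayed in the fits and named no gene. Named genes were the study genes, up to 12 separated calls with the largest rise or fall (locus names first), and the 4 (expression) or 3 (tails) genes of each of 21 lists with the smallest p; others are marked. Members and lists were chosen with earlier results of these data known. Alternatives included DESeq2 1.42.0.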

Additional observations from a re-analysis of the deposited data

How the results depend on the processing

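Expression calls numbered 660 (104 higher) without a low-count filter, where 18532 genes were tested, and 108 (10 higher, 98 lower) with the 4 libraries alone, where fewer libraries set the spread. Leaving out 1 library gave 146 to 321 calls, 18 to 44 higher and 128 to 277 lower, and neg-1 from -0.53 to -0.10. RLE factors, DESeq2 and library sizes without rRNA stayed within 1.5 times of each count. Of 59 named expression calls, 22 passed without each library in turn.

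Tail calls numbered 78 with centring (62 longer, 16 shorter), 55 with weights by reads (54 longer, 1 shorter) and 5, all longer, over peaks. Log2 tails gave 21 and the 4 libraries alone 15, and each kept 11 of the 15 genes. Leaving out 1 library gave 0 to 9 calls uncentred and 13 to 23 centred (13 to 20 longer, 0 to 3 shorter); none of the 15 genes passed without each library uncentred. The cause was not tested. The neg-1 tail difference ran from 20.3 to 26.6 nt without 1 library, and was 19.5 and 20.3 nt where it failed when also centred, and its peak gave 23.4 nt (limma adjusted p = 0.0756). With at least 50 reads neg-1 was not tested.

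With the replicate number as a block, expression calls were 532, of which 88 were higher; tail calls were 14 and the neg-1 tail passed (limma adjusted p = 0.0457). The labels do not say that a number marks a shared culture or day, so the numbers were not taken as pairs; deviations of same-numbered libraries correlated at 0.21 for log2 CPM and -0.045 for tails.

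Site calls ran from 4 to 15 without 1 library, were 0 in single-gene features alone and included 1 single gene with the F test. Values without a call changed sign for gld-2 expression (-0.0221 with RLE factors, -0.0224 with DESeq2, -0.0295 with the 4 libraries, and from -0.0280 to 0.0872 without 1 library) and for the gld-3 tail (-1.71 to 5.68 nt without 1 library, -0.19 nt when also centred without replicate 1 of gld-3 RNAi). Depth limits low genes: 17 falls rest on 0 reads in pos-1 RNAi.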
